A study of Mus musculus with 6 samples.

Results

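The genes that encode collagen chains were read on arrays of cells sorted as adipose tissue eosinophils from WT and Klf3-/- mice. A member is any gene whose platform symbol is Col followed by digits, the letter a and digits, taken only from probe sets with a single symbol. The rule found 68 probe sets for 42 genes, of 45037 probe sets and 17097 genes in all, and the brightest probe set over the 6 arrays stood for each gene. Of the 42 genes, 21 averaged above 5.10 log2 units over the arrays. This is the 95th percentile of the means of 44 olfactory receptor probe sets, which served as a background level because the table holds no detection calls. The members above that level are called above background, and the 21 others below it. When 2 olfactory pseudogene probe sets were left out, a choice made after the values were seen, the level was 4.79 and 26 members lay above it.

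Collagens are proteins of 3 chains wound into a triple helix, and they are the main structural proteins of the extracellular matrix. Fibrillar collagens such as types I, III and V pack into the fibrils that give connective tissue its strength, type IV collagen forms the sheet of basement membranes, and type VI collagen forms beaded microfilaments close to cells. Fibril-associated collagens with interrupted helices (FACIT) decorate the surface of fibrils. In adipose tissue the matrix surrounds adipocytes and is made largely by fibroblasts and by adipocytes themselves, with type VI collagen being abundant there.

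Each array held RNA of cells sorted through an eosinophil gate from the inguinal subcutaneous fat of a male FVB/NJ mouse that was 12 weeks old, housed at 22 °C on chow and not treated, with 3 mice of each genotype. The Klf3-/- mice were global knockouts in which a neomycin cassette disrupts the gene for the transcriptional repressor KLF3, so the disruption is present in every cell type, and WT littermates came from the same crosses of heterozygous parents. The fat was digested with type II collagenase, and live cells that carried CD45, CD11b, F4/80 and Siglec-F and had high side scatter were sorted. With so few arrays the precision of each comparison is low, and as 1 array was made per mouse the p-values rest on the spread between these 6 samples. The limma fits also draw the variance of each probe set towards a value shared by all probe sets.

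Several facts about the arrays bear on the collagen values. The deposited intensities were on different scales, with array medians between 30.3 and 58.7, and were therefore converted to log2 and quantile-normalised. Of the 8 measured eosinophil markers 2 lay above the background level, Prg3 and Ltc4s. Siglecf, Epx, Ccr3, Prg2, Il5ra and Alox15 lay below it, so the arrays do not show that the RNA is mainly of eosinophils. For the targeted gene, 5 of 6 Klf3 probe sets were higher and 1 was lower on every Klf3-/- array than on every WT array. Whether they lie before or after the cassette is not stated in the sources used here, and they do not check the genotype labels. In sorted samples of this kind fewer cells of a type and less RNA per cell cannot be told apart.

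Of the 42 collagen genes, 24 read higher in Klf3-/- and 18 read lower, and the median log2 fold change was 0.14. Over all 17097 genes the median was -0.04, with 7655 higher and 9442 lower. On the values as deposited the median of all genes moved by 0.17, to 0.13, the collagen genes split into 35 higher and 7 lower, and their median was 0.31, so the signs of small differences depend on the scale. No collagen gene passed an adjusted p of 0.05 in limma, where 0% of all probe sets did. At an unadjusted p under 0.05, 4 collagen genes were higher, which were Col14a1, Col5a3, Col6a2 and Col15a1, and the share of all genes called higher by that rule was 3.61%. In the other direction there was 1, Col20a1, with 2.47% of all genes called lower. Over all genes the counts were 618 higher against 423 lower, and on the values as deposited 541 against 31, where the collagen genes gave 4 higher and 0 lower by limma. For 5 collagen genes every Klf3-/- array lay above every WT array, against 4.84% of all genes, and for 2 every Klf3-/- array lay below every WT array, against 6.55% of all genes. Here and below, a lack of overlap refers to the normalised values unless stated.

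These counts depended on single arrays, and without Klf3-/- 3 the collagen median was 0.07. At the same unadjusted threshold 11 collagen genes were higher without WT 3 and 8 without Klf3-/- 1, while leaving out Klf3-/- 2, WT 1 or WT 2 gave 3 each. Of the 6 fits that left out an array, Col20a1 was past that threshold only in the fit without WT 1. The genes above background had 18 members higher and 3 lower, where of all 11115 genes above that level 5088 were higher and 6027 lower. A gene bright in 1 genotype, whichever it is, is more likely to clear a level set on the mean of both. The split is therefore given as a description.

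**Figure D1:**
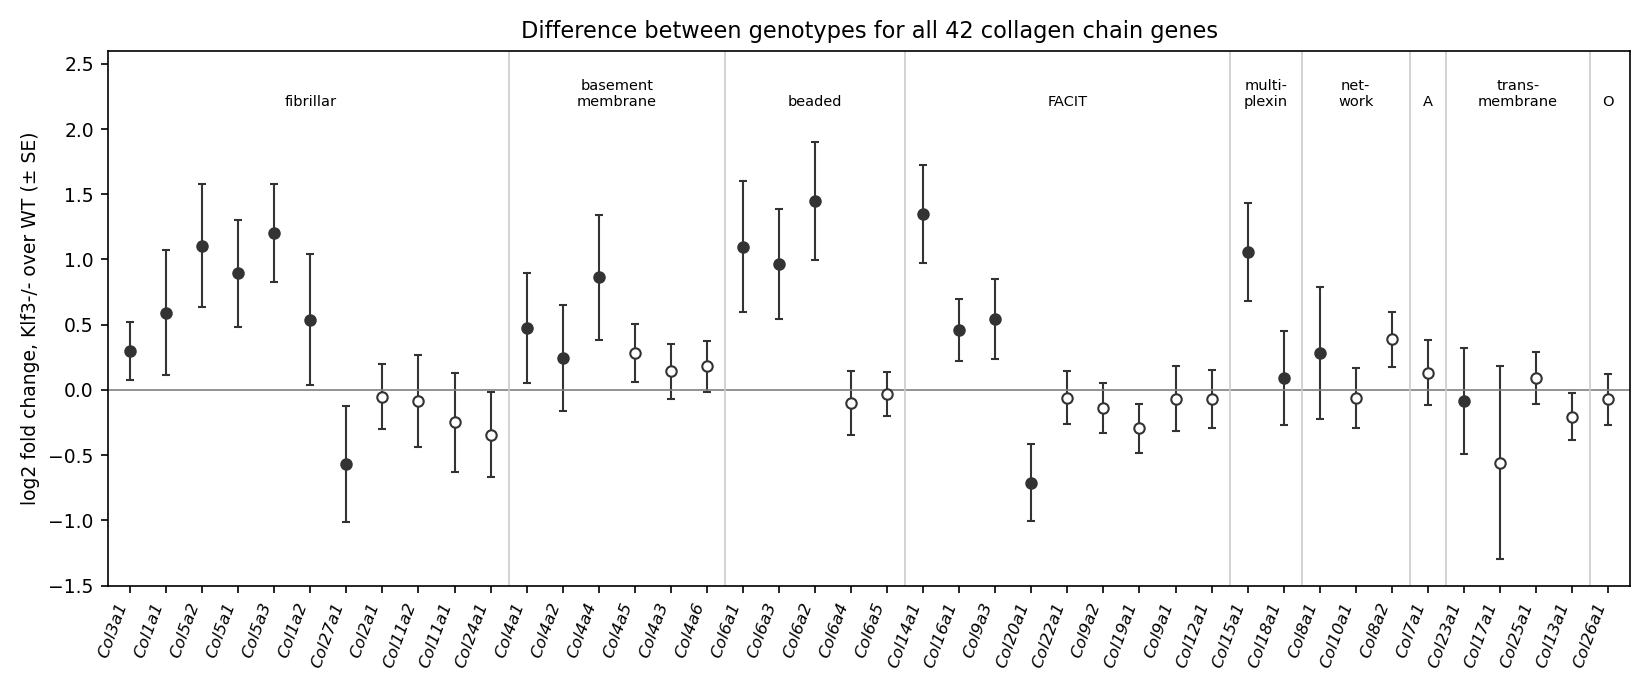
Log2 fold change, Klf3-/- over WT, of each of the 42 collagen chain genes (points) with its standard error from limma (bars), grouped by collagen class on the x axis. Filled points are genes with a mean above the background level and open points are genes below it, and A marks anchoring fibril and O other. Col5a1, Col5a2, Col5a3, Col6a1, Col6a2, Col6a3, Col14a1 and Col15a1 sit highest, between 0.89 and 1.45, with Col4a4 just below them at 0.86, while the open points lie between -0.56 and 0.39.

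The fibrillar class had 11 measured members, of which 6 read higher and 5 lower in Klf3-/-. The class median was 0.30 on the log2 fold change scale, and it was 0.07 without Klf3-/- 2 and 0.15 without WT 1. The 7 above background were Col3a1, Col1a1, Col5a2, Col5a1, Col5a3, Col1a2 and Col27a1. The 4 others, Col2a1, Col11a2, Col11a1 and Col24a1, include the main chain of cartilage fibrils and had fold changes from -0.34 to -0.05.

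Col3a1, which encodes the single chain of type III collagen, had the brightest probe set of the class. It read 12.29, 12.51 and 12.90 log2 units on WT arrays 1 to 3 and 12.65, 13.02 and 12.91 on Klf3-/- arrays 1 to 3. WT 3 lay at the level of the Klf3-/- arrays and the genotypes overlapped, with a log2 fold change of 0.30 (SE 0.22, adjusted p = 0.945 from limma) that was 0.15 without WT 1. A dimmer Col3a1 probe set read 7.38, 8.16 and 8.47 in WT and 8.54, 10.44 and 9.11 in Klf3-/-, without overlap, and its log2 fold change was 1.36 (SE 0.51, adjusted p = 0.868 from limma). Both probe sets of Col3a1 thus had the same sign and differed in size by over 1 log2 unit.

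Col1a1 encodes the major chain of type I collagen, the most abundant collagen of the body. It read 9.21, 10.51 and 11.19 log2 units in WT 1 to 3 and 10.57, 11.01 and 11.10 in Klf3-/- 1 to 3. The WT arrays spanned the whole range of the knockout arrays and beyond, so the log2 fold change of 0.59 (SE 0.48) lay within the spread between replicates. Without WT 1, the lowest array, it was 0.04, and without WT 3 it was 1.03. Col1a2, its partner chain, was read by 1 dim probe set with a fold change of 0.54, which was -0.01 without Klf3-/- 2. Other probe sets of Col1a2 may be among those without a symbol and were not looked for, so its dim signal may not reflect the gene.

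The 3 chains of type V collagen, which starts fibrils and sets their width, read higher in Klf3-/- by 0.89 to 1.21 log2 units. Col5a3 read 7.53, 7.21 and 7.94 log2 units in WT 1 to 3 and 8.39, 9.57 and 8.34 in Klf3-/- 1 to 3. As deposited these were intensities of 158, 214 and 151 in WT and 366, 1185 and 239 in Klf3-/-. All 3 Klf3-/- arrays lay above all WT arrays, with Klf3-/- 2 far above the rest. A dimmer Col5a3 probe set read 5.18, 5.76 and 6.19 in WT and 5.84, 8.72 and 6.65 in Klf3-/-, with overlap. Its log2 fold change was 1.36 (SE 0.69, adjusted p = 0.910 from limma).

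The Col5a3 difference by the brighter probe set was 1.21 log2 units, or 2.31-fold (SE 0.37, unadjusted p = 0.014, adjusted p = 0.862 from limma), and 0.80 without Klf3-/- 2. Col5a2 had a log2 fold change of 1.10 (SE 0.47, adjusted p = 0.901 from limma) and Col5a1 one of 0.89 (SE 0.41). In both genes the highest WT array, WT 3, read above the lowest Klf3-/- array. Without Klf3-/- 2 these became 0.59 and 0.48.

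Col27a1, a fibrillar chain best known from cartilage, was the 1 fibrillar gene above background that read lower. It read 5.82, 6.12 and 6.92 in WT 1 to 3 and 4.87, 6.41 and 5.88 in Klf3-/- 1 to 3, with overlap and a log2 fold change of -0.57 (SE 0.45). Without Klf3-/- 1 that was -0.15, without WT 3 -0.26 and without Klf3-/- 2 -0.90. Its dimmer probe set gave -0.58 (SE 0.19, adjusted p = 0.868 from limma) with every Klf3-/- array below every WT array.

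**Figure D2:**
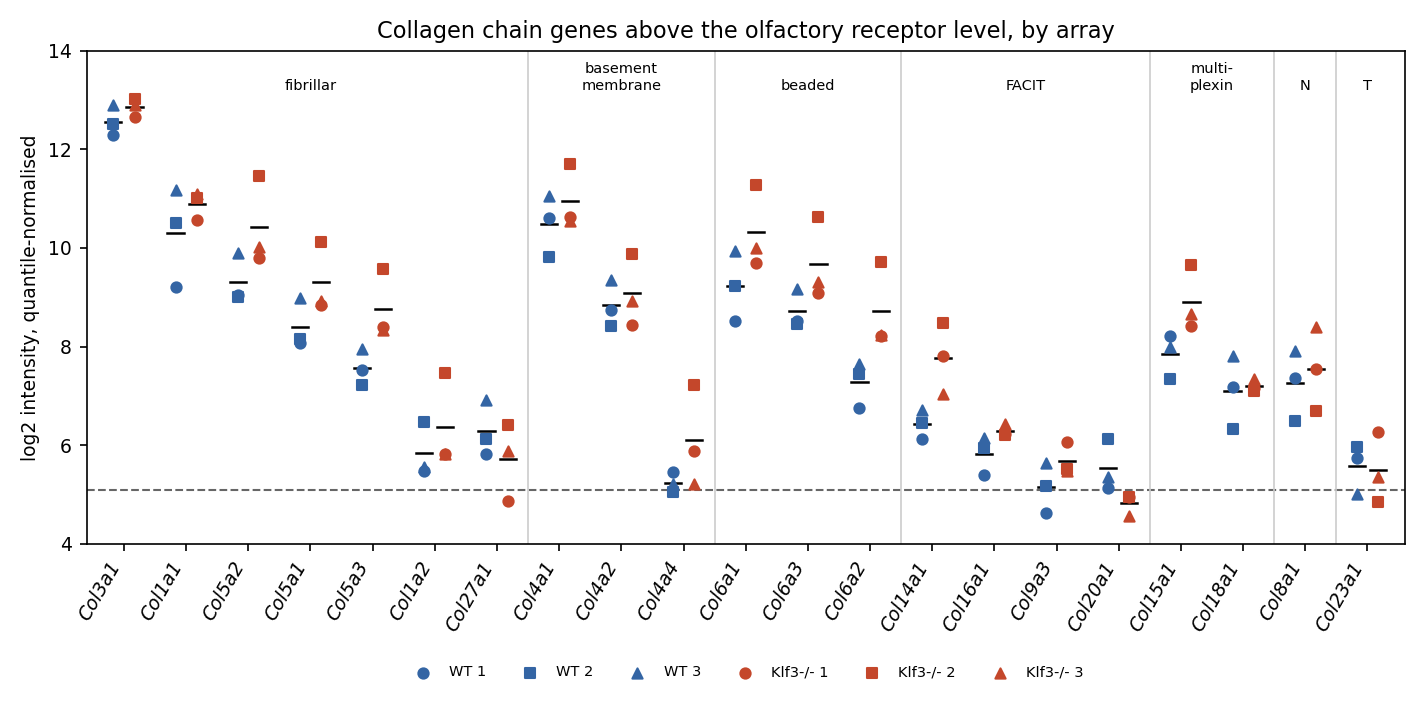
Quantile-normalised log2 intensity of the 21 collagen chain genes above the background level (dashed line at 5.10), grouped by class on the x axis. Blue points are WT arrays and red points Klf3-/- arrays, with a marker shape for each replicate number, black bars are genotype means, N marks network and T transmembrane, and heights of different genes are not on one scale. Klf3-/- 2 is the highest of the 6 arrays for 13 of the 21 genes, and all red points lie above all blue points for Col5a3, Col6a2, Col14a1, Col16a1 and Col15a1.

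Type IV collagen is the network of basement membranes, the sheets that underlie endothelium and epithelium and enclose adipocytes and muscle cells. Its 6 genes all had a positive sign, with fold changes from 0.14 to 0.86 and a median of 0.26, and 0 of them had an unadjusted p under 0.05 in limma. Without Klf3-/- 3 the count was 1. The median was 0.15 without Klf3-/- 2, 0.47 without Klf3-/- 1 and 0.48 without WT 3. Col4a1, Col4a2 and Col4a4 lay above background, while Col4a3, Col4a5 and Col4a6, which are prominent in kidney and other specialised basement membranes, lay below it.

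Col4a1 and Col4a2 encode the chains found in nearly every basement membrane. Col4a1 read 10.60, 9.81 and 11.05 in WT 1 to 3 and 10.62, 11.71 and 10.55 in Klf3-/- 1 to 3, so Klf3-/- 2 alone lay above all WT arrays. Its log2 fold change was 0.47 (SE 0.42, adjusted p = 0.953 from limma), and it was 0.10 without Klf3-/- 2 and 0.14 without WT 2. Col4a2 read 8.75, 8.42 and 9.35 in WT and 8.44, 9.88 and 8.93 in Klf3-/-.

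The Col4a2 difference of 0.24 log2 units (SE 0.41) became -0.15 without Klf3-/- 2 and 0.03 without WT 2. Col4a4 read 5.46, 5.05 and 5.21 in WT and 5.89, 7.21 and 5.21 in Klf3-/-, and again Klf3-/- 2 stood far above the other arrays. Its log2 fold change of 0.86 was 0.30 without that array. In RefSeq the genes Col4a1 and Col4a2 lie next to each other on opposite strands.

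Type VI collagen is made of chains whose globular ends give its filaments a beaded look, and it is a prominent matrix protein around adipocytes. Of its 5 measured genes, Col6a1, Col6a2 and Col6a3, which encode the chains of the common heterotrimer, lay above background. All 3 read higher in Klf3-/-, by 0.96 to 1.45 log2 units, and 1 of them had an unadjusted p under 0.05. That rule called 3.61% of all genes higher. The alternative chains Col6a4 and Col6a5 lay below background, with fold changes of -0.10 and -0.03, and the median over the class was 0.96. Without Klf3-/- 2 that median was 0.49, and without WT 1 no gene of the class was called.

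Col6a2 had the largest log2 fold change of the 42 genes on these arrays. It read 6.75, 7.44 and 7.64 log2 units in WT 1 to 3 and 8.22, 9.72 and 8.23 in Klf3-/- 1 to 3, or 92.7, 252 and 124 against 326, 1321 and 222 as deposited. The lowest normalised Klf3-/- array lay above the highest WT array, and Klf3-/- 2 was highest of all. As deposited, WT 2 exceeded Klf3-/- 3. The difference was 1.45 log2 units, or 2.73-fold (SE 0.45, unadjusted p = 0.014, adjusted p = 0.862 from limma), and 0.95 without Klf3-/- 2.

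The name of that Col6a2 probe set carries the x that the array maker gives to sets that may bind related transcripts. The other Col6a2 probe set, which has no such mark, read 5.80, 6.93 and 7.33 in WT and 7.56, 9.39 and 7.79 in Klf3-/-. It also had no overlap between genotypes and a log2 fold change of 1.56 (SE 0.57, adjusted p = 0.868 from limma).

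Col6a1, the neighbour of Col6a2 on the same strand in RefSeq, read 8.51, 9.23 and 9.94 in WT 1 to 3 and 9.69, 11.29 and 9.996 in Klf3-/- 1 to 3. WT 3 lay within the range of the Klf3-/- arrays. Its log2 fold change was 1.10 (SE 0.50, unadjusted p = 0.065, adjusted p = 0.910 from limma), and it was 0.62 without Klf3-/- 2. With the replicate number as a block the unadjusted p was 0.039, so the class then had 2 genes under 0.05 rather than 1. Col6a3 read 8.52, 8.46 and 9.16 in WT and 9.10, 10.62 and 9.32 in Klf3-/-, where WT 3 exceeded Klf3-/- 1, and its log2 fold change was 0.96 (SE 0.42), or 0.49 without Klf3-/- 2.

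Col6a2 and Col5a3 were the type VI and type V genes whose brightest probe set had no overlap between genotypes. The dimmer Col5a3 probe set did overlap. Col6a1 lies beside Col6a2, and KLF proteins bind CACCC boxes in DNA. The stretches just upstream of Col6a2, Col6a1 and Col5a3 are therefore shown. They are read from RefSeq promoter windows of GRCm38.p6, 5′ to 3′ on the strand of the gene, without any base inside the RefSeq gene span. Capitals mark CACCC or, for the other strand, GGGTG.
Col6a2, chr10:76623631-76623880, minus strand: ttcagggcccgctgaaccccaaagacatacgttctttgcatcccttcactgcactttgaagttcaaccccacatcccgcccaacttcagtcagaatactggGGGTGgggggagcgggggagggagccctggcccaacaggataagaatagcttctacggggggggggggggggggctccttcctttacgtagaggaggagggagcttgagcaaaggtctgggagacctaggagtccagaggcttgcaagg
Col6a1, chr10:76726045-76726294, minus strand: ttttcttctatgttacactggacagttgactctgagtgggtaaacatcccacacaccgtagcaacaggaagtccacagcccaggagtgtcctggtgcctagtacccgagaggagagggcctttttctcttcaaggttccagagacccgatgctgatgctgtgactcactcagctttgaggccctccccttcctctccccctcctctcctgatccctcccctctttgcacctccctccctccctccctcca
Col5a3, chr9:20815118-20815317, minus strand: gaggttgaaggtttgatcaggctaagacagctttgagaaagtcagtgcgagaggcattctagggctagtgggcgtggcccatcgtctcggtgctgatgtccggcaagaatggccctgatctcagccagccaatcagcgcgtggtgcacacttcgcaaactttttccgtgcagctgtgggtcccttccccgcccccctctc

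The Col6a2 stretch held 1 match, GGGTG, and the stretches of Col6a1 and Col5a3 held 0. Windows were found for 33 of the 42 collagen genes, with a second window for some. In the full 250 bases before the start site, with bases inside the gene kept, 24 of 36 collagen windows (66.7%) had CACCC on either strand. Of all 32851 mouse promoter windows 52.0% had it. Counted by gene, 22 of the 33 collagen genes had it in at least 1 window. So short a motif is present in most windows of this length, and neither a match nor its absence says whether KLF3 binds there. Binding was not measured on these arrays.

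FACIT genes had 9 measured members, of which 3 read higher and 6 lower. Their median on the log2 fold change scale was -0.07. That median turned to 0.06 without Klf3-/- 1 and to 0.01 without WT 3, so it has no settled sign. The 4 members above background were Col14a1, Col16a1, Col9a3 and Col20a1, and they went in both directions. The 5 others, Col22a1, Col9a2, Col19a1, Col9a1 and Col12a1, had fold changes from -0.30 to -0.06. For Col12a1 too, other probe sets may be among those without a symbol and were not looked for.

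Col14a1 encodes type XIV collagen, which binds the surface of fibrils and takes part in their organisation. It read 6.13, 6.45 and 6.71 log2 units in WT 1 to 3 and 7.81, 8.49 and 7.04 in Klf3-/- 1 to 3. As deposited the intensities were 60.04, 120 and 67.8 in WT and 247, 561 and 101 in Klf3-/-. On the normalised scale all Klf3-/- arrays lay above all WT arrays, while as deposited WT 2 exceeded Klf3-/- 3.

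The Col14a1 difference was 1.35 log2 units, or 2.55-fold (SE 0.37, unadjusted p = 0.008, adjusted p = 0.844 from limma), the smallest p among the collagen genes. Without Klf3-/- 2 it was 0.99. Its 3 probe sets all read higher in Klf3-/-, by 0.44 to 1.60 log2 units. The probe set at 0.44 (SE 0.33) averaged 7.08 log2 units, close to the 7.10 of the one used here. It read 6.73, 6.37 and 7.48 in WT and 6.97, 7.67 and 7.24 in Klf3-/-, with overlap. The rank of Col14a1 by p thus depends on which of these nearly equally bright probe sets stands for the gene.

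Col16a1, whose product lies in fibrils and basement membrane zones, read 5.40, 5.94 and 6.15 in WT and 6.24, 6.20 and 6.44 in Klf3-/-. The genotypes did not overlap, but the gap between WT 3 and Klf3-/- 2 was small, and the log2 fold change was 0.46 (SE 0.24, adjusted p = 0.910 from limma). As deposited, WT 2 exceeded Klf3-/- 3. Without WT 1, the lowest array, it was 0.24. Col9a3, a chain of the type IX collagen of cartilage, had a log2 fold change of 0.54 with overlap, which was 0.28 without WT 1 and 0.35 without Klf3-/- 1.

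Col20a1, a FACIT gene whose function is little known, was the 1 collagen gene lower at an unadjusted p under 0.05. It read 5.13, 6.13 and 5.35 in WT 1 to 3 and 4.95, 4.95 and 4.56 in Klf3-/- 1 to 3. All 3 Klf3-/- arrays lay below the background level of 5.10 and WT 1 lay close to it. The difference of -0.71 log2 units (SE 0.30, unadjusted p = 0.046, adjusted p = 0.901 from limma) therefore rests on a dim signal, and without WT 2, the highest array, it was -0.41. Col19a1, the other collagen gene lower on every Klf3-/- array, lay below background on all 6.

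Types XV and XVIII collagen, the multiplexins, carry sugar chains and sit in basement membrane zones, and fragments cut from their ends are known inhibitors of blood vessel growth. Col15a1 read 8.21, 7.35 and 8.0005 log2 units in WT 1 to 3 and 8.41, 9.65 and 8.66 in Klf3-/- 1 to 3. The genotypes did not overlap, though WT 1 and Klf3-/- 1 were close. Its log2 fold change was 1.06, or 2.08-fold (SE 0.38, unadjusted p = 0.026, adjusted p = 0.868 from limma).

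With the replicate number as a block the unadjusted p of Col15a1 was 0.056, and without Klf3-/- 2 its fold change was 0.68. Col18a1, its relative, read 7.19, 6.34 and 7.80 in WT and 7.16, 7.10 and 7.35 in Klf3-/-, with the knockout arrays inside the WT range and a fold change of 0.09 (SE 0.36). That value was -0.29 without WT 2.

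Of the network-forming collagens 1 of 3 was above background. Col8a1, which is made by vessel wall and other cells, read 7.37, 6.50 and 7.91 in WT and 7.54, 6.69 and 8.40 in Klf3-/-, so arrays of the same number lay close together and replicate 2 was lowest in both genotypes. The log2 fold change was 0.28 (SE 0.51), a second probe set above background gave -0.08, and without WT 2 or Klf3-/- 3 the sign of the first also turned, to -0.10 and -0.15. Of the 4 transmembrane collagens, Col23a1 was above background, with 5.74, 5.96 and 5.02 in WT and 6.26, 4.86 and 5.36 in Klf3-/-. Its fold change of -0.08 had no settled sign, being 0.08 on the values as deposited.

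The 6 remaining genes outside the main classes, Col10a1, Col8a2, Col7a1, Col17a1, Col25a1 and Col13a1, and Col26a1 of no assigned class, lay below background. Col17a1, the collagen of epidermal attachment, varied most among them, from 3.81 to 6.81 over the arrays.

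Probe sets of the same gene gave the same sign for 9 of the 10 collagen genes with over 1 probe set above background, with Col8a1 as the exception. The log2 fold changes of their probe sets ran from 0.87 to 0.97 for Col5a1, from 1.10 to 1.13 for Col5a2 and from 0.45 to 0.47 for Col4a1. The sizes differed most for Col3a1 and Col14a1.

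The same replicate numbers were compared next, with the numbers assumed to pair the arrays. Of the 21 genes above background, 11 read higher in Klf3-/- within all 3 numbers, 6 within 2, 3 within 1 and 1 within 0. The same count was not made over all genes, so the split is given as a description. The genes higher within every number were Col14a1, Col15a1, Col16a1, Col1a2, Col3a1, Col5a2, Col5a3, Col6a1, Col6a2, Col6a3 and Col8a1, which includes every type VI gene above background. Col20a1 was lower within every number.

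The size of the difference was uneven between replicate numbers. The mean over the 21 genes was 0.55 log2 units for Klf3-/- 1 against WT 1, 1.18 for Klf3-/- 2 against WT 2 and 0.01 for Klf3-/- 3 against WT 3. For the 3 type IV genes it was 0.05, 1.84 and -0.31, and for the 3 type VI genes it was 1.07, 2.17 and 0.27. WT 3 was the highest of the WT arrays for 16 of the 21 genes, and Klf3-/- 2 the highest Klf3-/- array for 15.

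**Figure D3:**
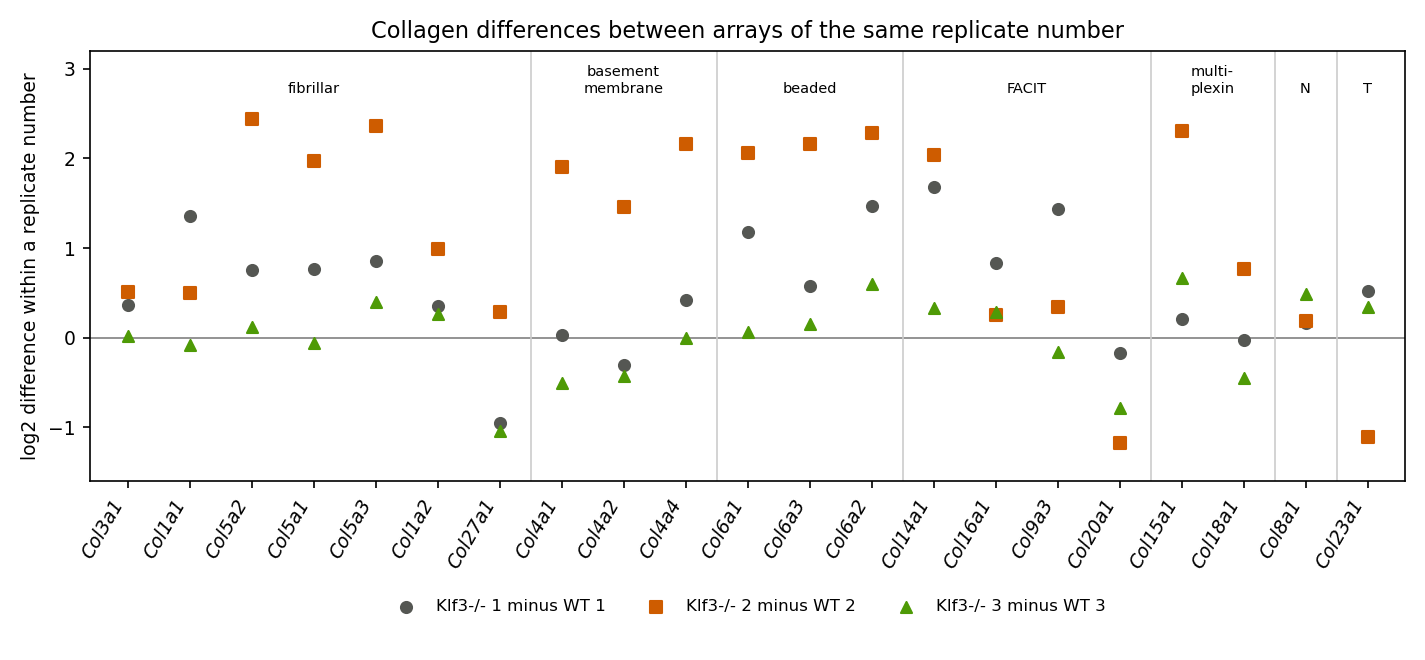
Difference in quantile-normalised log2 intensity between the Klf3-/- and the WT array of the same replicate number, for the 21 collagen chain genes above background, grouped by class on the x axis (N network, T transmembrane). Each marker is a replicate number. The orange squares (replicate 2) are the highest marker for most genes, with a mean of 1.18, the green triangles (replicate 3) have a mean of 0.01, and Col20a1 is below 0 at all 3.

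Collagen chains need a set of enzymes and chaperones inside the cell, are trimmed and cross-linked outside it, bind receptors and are broken down again. Of 52 measured genes of these steps, 40 read higher in Klf3-/- and 12 lower, and the median over the 52 was 0.25 log2 units. None passed an adjusted p of 0.05 in limma, while 12 were higher and 1 was lower at an unadjusted p under 0.05, which over all genes called 3.61% higher and 2.47% lower. Without WT 1 the higher count was 6 and without Klf3-/- 2 it was 7, and without Klf3-/- 1 the median was 0.41.

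In the cell, 3 of 17 genes of modification and folding were higher at an unadjusted p under 0.05. P3h4, a partner of the enzymes that modify lysine in collagen, had a log2 fold change of 1.07 (SE 0.32). Plod2, the lysyl hydroxylase that acts on the ends of the chains, had one of 0.94 (SE 0.37), and Serpinh1, the collagen-specific chaperone HSP47, one of 0.88 (SE 0.37). Colgalt1, which adds galactose to collagen, was lower on every Klf3-/- array, with 10.31, 10.20 and 10.08 in WT and 9.90, 9.66 and 9.70 in Klf3-/- and a log2 fold change of -0.45 (SE 0.18). The median of this group was 0.15. Leaving out Klf3-/- 2, WT 1 or WT 2 left 1 gene of it called higher and moved its median to 0.24, 0.24 and 0.09, and without Klf3-/- 3 there were 2 called higher.

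Outside the cell, 5 of 14 genes of processing and cross-linking were higher at that threshold, where 3.61% of all genes were, and the median was 0.64. Without Klf3-/- 2 there were 3 with a median of 0.35, and without WT 1 there were 3 with a median of 0.38. Pcolce, which enhances the removal of the C-terminal propeptide, read 7.73, 7.69 and 7.66 log2 units in WT 1 to 3 and 9.30, 9.44 and 9.27 in Klf3-/- 1 to 3. The SD was 0.03 in WT and 0.09 in Klf3-/-, and the difference was 1.64, or 3.12-fold (SE 0.17, adjusted p = 0.200 from limma). Pcolce2, its relative, differed by 1.74 (SE 0.50), Loxl1, a lysyl oxidase-like enzyme, by 1.62 (SE 0.42) and Bmp1, the protease that removes the propeptide, by 0.57 (SE 0.23).

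Of the 14 genes those 4 had every Klf3-/- array above every WT array, which held for 4.84% of all genes. Dcn, which encodes the fibril-binding proteoglycan decorin, differed by 0.71 (SE 0.29) with overlap.

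Of 11 receptor genes 3 were higher at that threshold, where 3.61% of all genes were, and the median was 0.13. They were Antxr2 (1.17, SE 0.31) and Antxr1 (1.64, SE 0.52), which bind collagen VI and other matrix proteins and are better known as anthrax toxin receptors, and Ddr2 (0.47, SE 0.18), a receptor kinase for fibrillar collagen. Mrc2, a receptor that takes up collagen for breakdown, had the next smallest p, with a log2 fold change of 1.12 (SE 0.61) and overlap. Without WT 1 there was 1 receptor called, and without Klf3-/- 1 or Klf3-/- 2 there were 2, while the median was 0.43 without Klf3-/- 1.

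Of 10 genes of collagen breakdown 1 was higher at that threshold, where 3.61% of all genes were, and the median was 0.69. The gene called was Fap, a protease of activated fibroblasts, which read 5.88, 6.87 and 4.997 in WT and 7.06, 9.30 and 7.50 in Klf3-/- (2.04, SE 0.67, adjusted p = 0.868 from limma). Ctsk, which cuts the triple helix, had 0.91 (SE 0.42), and Mmp2, a gelatinase, had 0.79 (SE 0.42), both with overlap. Without Klf3-/- 1 there were 4 genes of this group called, and without Klf3-/- 3 the median was 0.41.

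Markers of cell types that make collagen were read beside these genes. Of 14 markers of stromal fibroblasts, 13 read higher in Klf3-/-, 8 of them at an unadjusted p under 0.05, and for 8 every Klf3-/- array lay above every WT array. Over all genes these rules called 3.61% and 4.84%. Their median log2 fold change was 1.01, and without Klf3-/- 2 it was 0.54 with 6 markers called. Without WT 1 the called number was 5. Pdgfra, the defining receptor of adipose stromal cells, read 5.04, 4.88 and 6.12 in WT and 5.52, 8.29 and 5.17 in Klf3-/-, with overlap and Klf3-/- 2 far above the rest, and Pdgfrb had a log2 fold change of -0.10. Tcf21 lay below background.

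Dcn and Gpx3, the brightest markers of the list, had log2 fold changes of 0.71 and 1.64. Dcn and Lum are also in the list of processing and cross-linking, and Dcn was called in both lists. The summed normalised intensity of the 14 markers ranged from 5623 to 9433 on WT arrays and from 11984 to 23496 on Klf3-/- arrays, with the highest on Klf3-/- 2, the array that was also highest for most collagens. On the log2 scale the WT arrays had a list mean of 7.60 ± 0.36 and the Klf3-/- arrays one of 8.67 ± 0.64 (SD over 3 arrays), a difference of 1.07. Within replicate numbers 1 to 3 it was 1.18, 1.67 and 0.36, so it was largest in replicate 2 and smallest in replicate 3, as for the collagens.

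For the 21 collagen genes above background the WT arrays had a mean of 7.66 ± 0.32 and the Klf3-/- arrays one of 8.23 ± 0.41 (SD over 3 arrays), a difference of 0.58. The collagen mean minus the stromal marker mean was 0.23, -0.20 and 0.13 on WT arrays 1 to 3 and -0.40, -0.69 and -0.22 on Klf3-/- arrays 1 to 3. All 3 Klf3-/- values lay below all WT values, those of WT 2 and Klf3-/- 3 narrowly. The collagen mean covers only genes above background, while the stromal mean keeps Tcf21, which lay below it. The stromal list was written with earlier results of these data known, so this difference is given as a description. The gate required CD45, a surface protein of leukocytes. The part of stromal cell RNA in the collagen values was not tested.

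**Figure D4:**
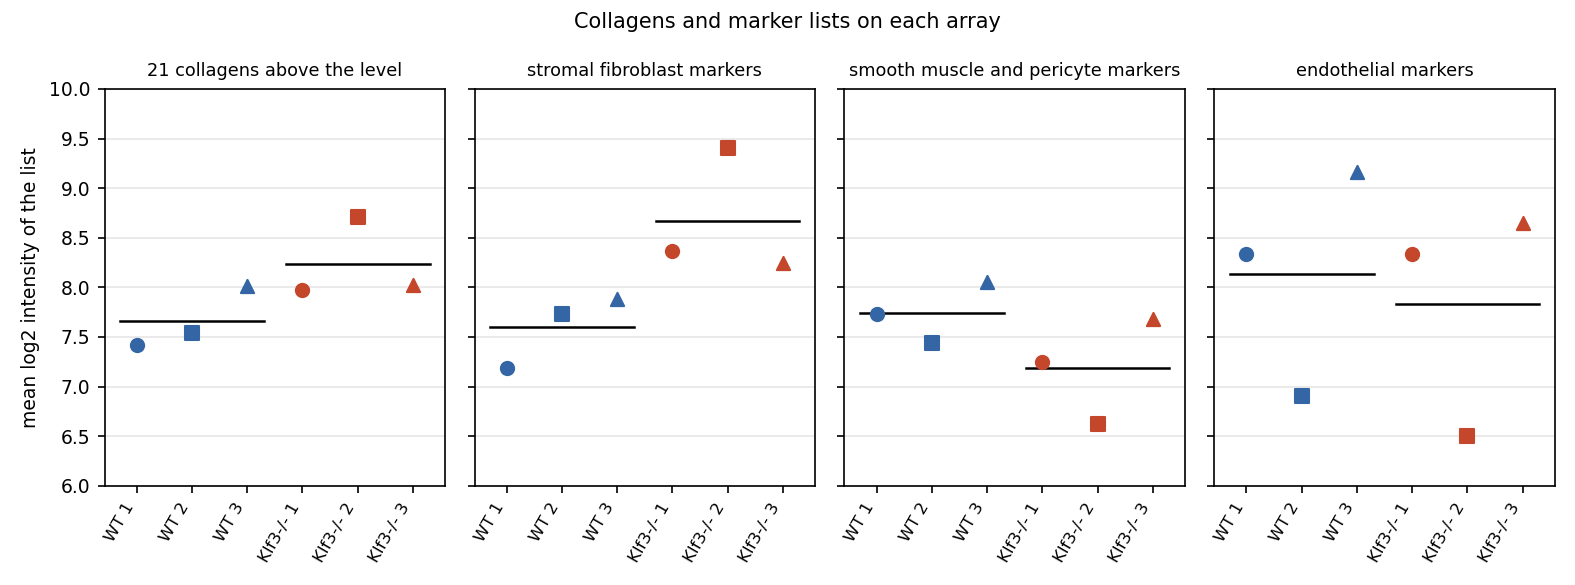
Mean quantile-normalised log2 intensity on each array (x axis) of the 21 collagen chain genes above background and of the markers of stromal fibroblasts, of smooth muscle and pericytes and of endothelium. Points are arrays (WT blue, Klf3-/- red), black bars are genotype means, and panels are not compared in height. Klf3-/- 2 is highest in the panels of collagens and stromal markers and lowest in the other 2.

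Other collagen-producing cells gave another pattern. Of 7 measured markers of smooth muscle and pericytes 6 read lower in Klf3-/-, 2 of them at an unadjusted p under 0.05. Over all genes that rule called 2.47% lower. The 2 were Myh11 and Cnn1, and Cnn1 lay below background. The median of the 7 markers was -0.62, and their summed intensity ranged from 2148 to 4606 in WT and from 1046 to 2659 in Klf3-/-. Acta2 and Myh11, the brightest of the list, had fold changes of -0.94 and -1.24. Of 10 endothelial markers 9 read lower with a median of -0.53, 0 at that threshold in limma, and their sums ranged from 1500 to 6705 in WT and from 1325 to 4733 in Klf3-/-. Pecam1 and Egfl7, the brightest, had -0.01 and -0.46. On the values as deposited 6 endothelial markers read lower and 4 higher, with a median of -0.30. Without Klf3-/- 2 the endothelial median was 0.44, with 8 markers higher, and it was 0.06 without WT 3, while that of smooth muscle and pericytes was -0.13 without Klf3-/- 2 with 0 called. Both lists were lowest on Klf3-/- 2, the array with the highest type IV collagen values.

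The remaining lists are given by their medians and leading genes. The 5 Schwann cell markers had a median of 0.12 (Mbp -0.82, Sox10 0.10), the 6 mesothelial markers -0.15 (Krt19 2.704, Upk3b -0.23), the 4 adipocyte markers -0.28 (Fabp4 -0.17, Retn -0.39) and the 11 macrophage markers 0.21 (C1qa 0.14, C1qb 0.14). In the macrophage list 1 gene was called, Lyve1 (2.21), named here after its value was seen. The macrophage median turned to -0.17 without Klf3-/- 3 and to -0.09 without WT 2, and the adipocyte median turned to 0.20 without WT 3. The Schwann, mesothelial and eosinophil medians kept their sign without each array in turn. On the values as deposited, though, the mesothelial median turned to 0.016 and the eosinophil median to 0.023. The 6 epithelial markers had a median of 1.57, or 0.99 without Klf3-/- 3 (Cdh1 1.91, Epcam 1.22), and 4 of them read highest on Klf3-/- 3 and next on Klf3-/- 1. The 2 others, Krt5 and Krt14, had -0.16 and -0.04. At an unadjusted p under 0.05, 3 epithelial markers were higher, Krt18 (4.51), Krt8 (3.38) and Cdh1, where that rule called 3.61% of all genes. Krt18 and Krt8 overlapped between genotypes. By the same rule 1 mesothelial marker, Krt19, and 1 Schwann marker, S100b (1.02), were higher. These genes too are named after their values were seen. The 8 eosinophil markers had a median of -0.07 (Prg3 -0.73, Ltc4s 0.53). The part of each in the collagen values was not tested.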

How the data were processed

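RNA of cells sorted as eosinophils from 3 WT and 3 Klf3-/- mice was amplified with the 3′ IVT Pico Kit and hybridised to Affymetrix HT MG-430PM arrays. The deposited table gives linear intensities for 45037 probe sets, which the authors processed in Partek Genomics Suite, and a legend of the study names RMA. Its steps are not stated in these sources. As array medians differed, log2 values were quantile-normalised between arrays. Genotypes were compared with limma 3.58.1 (lmFit and eBayes, two-sided) under R 4.3.3. Genotype was the single term. Benjamini-Hochberg adjustment covered every probe set on the array. The fit was tested on simulated data. Tables and figures used Python 3.11.15 and matplotlib 3.10.9. The study names a two-way analysis of variance with FDR and gives no second factor.

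The platform annotation gave 28898 probe sets 1 symbol, 551 several and 15588 none. Values are given on every array for the 2 brightest genes of the main classes, the brightest of other classes with a gene above background, genes at an unadjusted p under 0.05 and genes above background without overlap between genotypes. Each pathway list is given by its genes with the smallest p and those at an unadjusted p under 0.05. Each marker list is given by its 2 brightest, with called genes of some lists named after their values were seen. The members and lists were chosen with earlier results of these data known. Some genes are in a pathway list and a marker list, namely Dcn, Lum and Mrc1, so those lists are not separate observations. The labels call the mice litter-matched, and after subtracting genotype means, arrays that share a replicate number were correlated (0.17, 0.23 and 0.21 for numbers 1 to 3, Pearson's r over probe sets), so the numbers were taken to pair the arrays and a fit with them as a block was an alternative. Correlations between arrays of different numbers are not given here, so the pairing is an assumption. Promoter sequences are RefSeq windows of GRCm38.p6. Counts of triple-helix repeats were planned but not analysed here.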

Additional observations from a re-analysis of the deposited data

How the results depend on the processing

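No collagen gene and no gene passed an adjusted p of 0.05 in any setting tried (0 throughout). For counts at an unadjusted p under 0.05 and for medians, values that moved were as follows. With array weights 10 collagen genes were higher (against 4) and 0 lower (against 1), with 3 fibrillar, 3 beaded and 3 FACIT. Limma with trend and robust fitting gave 7 higher, 0 lower, 2 fibrillar and 3 beaded. A one-way analysis of variance gave 1 higher, 0 lower, 0 fibrillar and 0 beaded, 391 higher over all genes and 5 higher pathway genes. A two-way analysis of variance with the replicate block gave 0 higher, 0 in each of the fibrillar, beaded and FACIT classes, 351 higher and 655 lower over all genes and 6 pathway genes. In limma the replicate block left 4 collagen genes higher and 1 lower, with 2 beaded and 0 lower pathway genes. The mean of all probe sets gave 3 fibrillar genes and 0 lower pathway genes. A threshold of 0.01 left 1 higher and 0 lower.

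Restricted to probe sets above background, 0 collagen genes were lower, 1 was lower without overlap, 2 fibrillar genes were higher, the collagen median was 0.54, the FACIT median turned to 0.50, 238 genes were lower and 654 lower without overlap, and 0 pathway genes were lower. As deposited, 0 collagen genes were lower, 3 were above and 0 below without overlap, the FACIT median turned to 0.065, 31 genes were lower, 54 were below without overlap and 0 pathway genes were lower. Median-centred arrays gave 0 lower pathway genes. Col23a1 turned to 0.085 as deposited.

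Leaving out each array in turn gave 3 to 11 higher and 0 to 1 lower collagen genes, 5 to 14 above and 2 to 5 below without overlap, and a median of 0.07 to 0.17. By class it gave 1 to 4 fibrillar, 0 to 1 basement membrane, 0 to 3 beaded and 1 to 3 FACIT genes higher, with medians from 0.07 to 0.41 for fibrillar, from 0.15 to 0.48 for basement membrane, from 0.49 to 1.26 for beaded and from -0.17 to 0.060 for FACIT. Over all genes, 471 to 712 were higher, 315 to 474 lower, 1390 to 1733 above and 1847 to 2534 below without overlap, and 6 to 15 pathway genes were higher and 0 to 1 lower. With an array fewer, fewer comparisons must hold for a gene to lie apart. Signs of single genes also turned: Col1a2 ran from -0.010 to 0.85, Col4a2 from -0.15 to 0.57, Col18a1 from -0.29 to 0.45, Col8a1 from -0.15 to 0.70 and Col23a1 from -0.46 to 0.23. In all, 9 of the single-gene values under alternatives turned and 348 kept their sign. The cause of these shifts was not tested. For the 21 collagen genes below background, signal over background limits what the arrays can show.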
